A study of Mus musculus with 2 samples.

Results

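STAT5 peaks that lay inside named genes are described here for both libraries of the series. A peak was kept when the deposited distance to a gene on its lower or higher coordinate side was 0, the gene carried a proper symbol (not a Gm number and not a Rik clone name), the peak was nuclear, and it did not touch Stat5a, Stat5b or Tert. This left 493 of 1181 nuclear peaks in 476 named genes in the Tert+/+ library and 318 of 817 nuclear peaks in 305 named genes in the Tert-/- library, out of 2054 deposited peaks in all. Peaks in Stat5a, Stat5b or Tert, of which there were 27 and 8, and peaks in Gm or Rik models alone, of which there were 16 and 12, were left out.

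The cells were primary valve interstitial cells of the mouse aortic valve, with the genotype Tert+/+ in 1 library and Tert-/- in the other. Both had been kept for 7 days in osteogenic medium, which held the glucocorticoid dexamethasone at 100 nM, ascorbic acid 2-phosphate at 50 µM, glycerol phosphate at 10 mM and fetal bovine serum at 10%, so neither group was free of these agents. CUT&Tag libraries for STAT5 were amplified with 14 PCR cycles. Each genotype had a single library, so differences between them had no replicate check. Depth is not given in the sources used here. Peak lists do not measure expression, so the labelled cell type could not be checked against its markers.

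STAT5A and STAT5B are transcription factors that are phosphorylated by JAK kinases downstream of cytokine, growth hormone and prolactin receptors, enter the nucleus as dimers and bind DNA at a palindromic element, often in introns and distal enhancers as well as promoters. Valve interstitial cells resemble fibroblasts, maintain the matrix of the valve leaflet and can take on a bone-like state in calcific valve disease. In CUT&Tag an antibody guides a transposase that cuts and tags the DNA near the bound protein, so a peak marks a place where tagged fragments piled up.

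Few of these peaks came within 250 bases of a gene start, and 5 of those that did are shown because the bases under them could be read from a sequence table. RefSeq promoter windows (GRCm38.p6, the assembly of mm10) run from 250 bases before a gene start to 50 after it. Of the member peaks, 2 of 493 in the Tert+/+ library and 11 of 318 (3.46%) in the Tert-/- library touched such a window. Some touched only the window of another gene, as the Tert-/- peak in Fbxl12 did with that of Ubl5. The Tert-/- members were also wider, with a mean of 240 bp against 84.5 bp, so the 2 counts are not like for like. The share over all nuclear peaks was not computed, and the difference was not tested. The 250 bases before the start of 5 such genes are printed here, 5′ to 3′ on the gene's strand, and capitals mark the bases under the peak. Slc25a23, a calcium-regulated mitochondrial carrier, had a Tert+/+ peak, and the other 4 had Tert-/- peaks. These were Zfp160, a zinc finger gene, Tefm, the elongation factor of mitochondrial transcription, Serpina1e, a protease inhibitor of the alpha-1-antitrypsin family, and Cntnap2, a neurexin-related adhesion gene that is among the longest of the genome.
Slc25a23 (chr17:57059864-57060113, minus strand): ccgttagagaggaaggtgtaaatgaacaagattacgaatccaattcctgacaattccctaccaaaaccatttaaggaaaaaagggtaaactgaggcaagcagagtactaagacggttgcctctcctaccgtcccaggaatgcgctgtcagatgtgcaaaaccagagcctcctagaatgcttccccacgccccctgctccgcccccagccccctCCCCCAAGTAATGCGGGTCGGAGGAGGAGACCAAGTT
Zfp160 (chr17:21008691-21008940, plus strand): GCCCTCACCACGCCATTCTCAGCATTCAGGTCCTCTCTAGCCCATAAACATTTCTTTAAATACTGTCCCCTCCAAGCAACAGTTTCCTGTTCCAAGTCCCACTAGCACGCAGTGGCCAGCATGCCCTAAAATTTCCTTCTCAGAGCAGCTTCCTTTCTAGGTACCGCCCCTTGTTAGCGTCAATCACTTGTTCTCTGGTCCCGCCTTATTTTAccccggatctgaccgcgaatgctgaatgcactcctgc
Tefm (chr11:80142154-80142403, minus strand): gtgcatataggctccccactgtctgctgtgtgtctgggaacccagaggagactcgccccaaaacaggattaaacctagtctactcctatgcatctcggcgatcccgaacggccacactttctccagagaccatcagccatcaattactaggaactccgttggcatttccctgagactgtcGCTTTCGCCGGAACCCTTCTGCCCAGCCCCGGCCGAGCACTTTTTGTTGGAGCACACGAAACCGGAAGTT
Serpina1e (chr12:103956898-103957147, minus strand): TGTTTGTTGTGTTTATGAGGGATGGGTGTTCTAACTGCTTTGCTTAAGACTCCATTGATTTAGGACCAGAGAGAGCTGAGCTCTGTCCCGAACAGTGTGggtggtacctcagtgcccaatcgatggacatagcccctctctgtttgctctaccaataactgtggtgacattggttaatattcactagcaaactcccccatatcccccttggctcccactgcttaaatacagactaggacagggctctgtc
Cntnap2 (chr6:45059811-45060060, plus strand): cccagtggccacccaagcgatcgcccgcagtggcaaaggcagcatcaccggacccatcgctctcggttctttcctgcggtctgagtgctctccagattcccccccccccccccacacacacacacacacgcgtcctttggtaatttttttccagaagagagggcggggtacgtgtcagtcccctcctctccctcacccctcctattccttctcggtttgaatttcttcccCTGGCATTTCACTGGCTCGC

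The peaks covered 37, 213, 70, 99 and 20 of these upstream bases, in the order printed. The Slc25a23 peak was a weak one (score 0.990, p-value 0.161), and the 4 Tert-/- peaks had scores of 1.48, 0.953, 0.926 and 0.934 with p-values of 0.0688, 0.170, 0.177 and 0.175. The letters TTCNNNGAA, the core of the STAT element, read the same on both strands and were searched in every window of 300 bases. They were found in 8.29% of all 32817 RefSeq windows, in 35 of 529 windows (6.62%) of the Tert+/+ genes and in 27 of 347 windows (7.78%) of the Tert-/- genes. None of the 5 printed stretches held them. Among the other windows that a member touched, the one of Trim45 held them before its start, outside the bases under the Tert-/- peak. A match, or its absence from these windows, describes the letters alone.

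Each peak carries the authors' own peak shape score, a number for how closely the pile-up resembles a peak, and a p-value that was not adjusted for multiple testing. In these members the p-value differed from the one-sided normal tail of the score by at most 1.5e-06, so the score and the p-value are one measurement, and a p-value of 0.05 stands at a score of 1.64. Scores rank peaks within a list. In the Tert+/+ library the member scores ran from 0.845 to 22.2 with a median of 1.12 (quartiles 1.06 and 1.76). In the Tert-/- library they ran from 0.843 to 2.23 with a median of 0.974 (quartiles 0.944 and 1.04). Most members were therefore weak peaks in both lists.

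A p-value under 0.05 was listed for 135 of the 493 Tert+/+ members (27.4%, exact 95% interval 23.5 to 31.5), beside 31.2% of all nuclear peaks of that library. In the Tert-/- library it was listed for 9 of 318 (2.83%, 1.30 to 5.30), beside 3.18% of all nuclear peaks. Nuclear peaks outside these genes and outside Stat5a, Stat5b and Tert gave 209 of 661 (31.6%, 28.1 to 35.3) and 17 of 491 (3.46%, 2.03 to 5.49). The intervals of members and other peaks overlapped in each library, and intervals here cover counting error only. Members made up 32 and 37 of the 100 highest-scoring nuclear peaks, beside 41.7% and 38.9% of all nuclear peaks. Member widths did not overlap between the libraries: the Tert+/+ members were 84.5 ± 4.59 bp wide (SD over 493 peaks, 80 to 120 bp) and the Tert-/- members 240 ± 44.9 bp (SD over 318 peaks, 145 to 386 bp). Other nuclear peaks were 85.0 ± 6.47 bp (51 to 120) and 238 ± 46.4 bp (78 to 381) wide, ranges that overlapped. What part depth or peak calling had in the widths and scores was not tested.

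**Figure D1:**
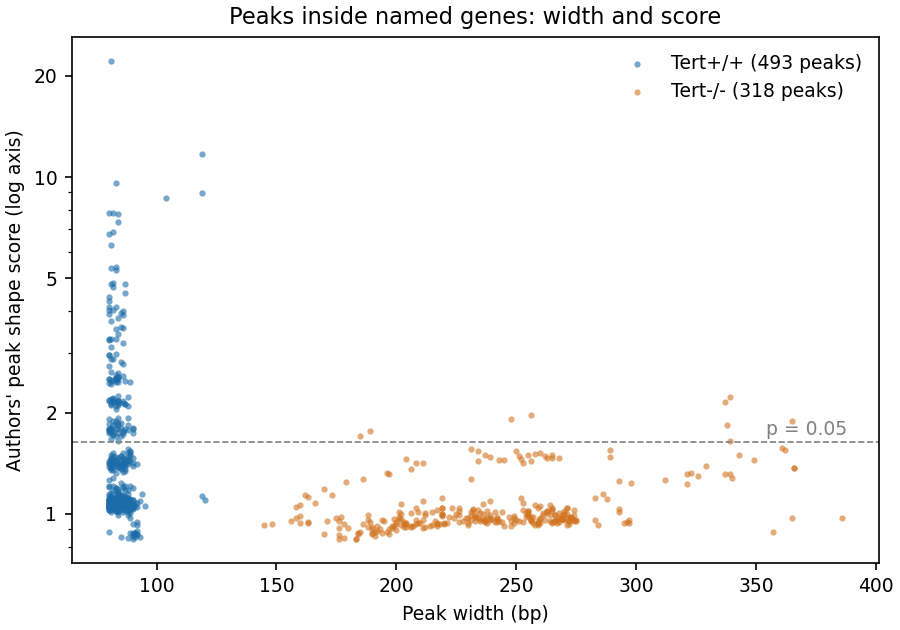
Width in bp against the authors' peak shape score (log axis) for every peak inside a named gene, 1 point per peak, with the dashed line at a p-value of 0.05. All 493 Tert+/+ peaks are at most 120 bp wide and reach a score of 22.2, whereas the 318 Tert-/- peaks start at 145 bp and end at a score of 2.23.

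The highest score among the Tert+/+ members, below the 29.6 of the highest nuclear peak of that library outside them, was in Dpp9, a cytosolic dipeptidyl peptidase that restrains inflammasome sensors (chr17:56200005-56200085, score 22.2, p-value 4.93e-109). It stood at 58.5% of the length of the 32.2 kb gene, counted from its start. Ano2, a calcium-activated chloride channel, held 2 adjoining peaks with scores of 11.7 and 8.98 (chr6:125876913-125877149), near the middle of the gene. The peak of Acacb, which makes the malonyl-CoA that limits mitochondrial fatty acid uptake, scored 9.61 and lay 7614 bp after its nearest start (chr5:114173092-114173174). Then came Myo3a, an unconventional myosin of sensory hair cells (8.64), Zfp949, a zinc finger gene (7.84), Marchf1, a membrane ubiquitin ligase that removes MHC class II from the cell surface (7.79), and Ybx3, a cold-shock domain protein that binds DNA and RNA (7.75). Auts2, a nuclear regulator linked to brain development (7.34), Myo7a, another hair cell myosin (6.85), and Prkdc, the catalytic subunit of the DNA-dependent protein kinase that repairs double-strand breaks (6.27), came next. The peaks of these genes other than Myo3a were single, or in Ano2 adjoining, sites.

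The Tert-/- list had no score that high, inside named genes or elsewhere: its highest nuclear peak, outside the members, scored 3.34. Scores rank peaks within a list, so the 2 lists are not compared in strength. The highest Tert-/- member score was 2.23 in Fam155a, an auxiliary subunit of the NALCN sodium leak channel (chr8:9495745-9496083, p-value 0.0129). Nckap5 followed at 2.15, and Hdac9, a class IIa histone deacetylase, at 1.97 (chr12:34135097-34135352, p-value 0.0245). H3f3b, which encodes the replication-independent histone H3.3, scored 1.91, with its peak 508 bp after the nearest start in a gene of 4.08 kb. Eml6, a microtubule-associated protein, scored 1.88, and Npr3, the clearance receptor for natriuretic peptides, scored 1.84. The remaining members under a p-value of 0.05 were Nme9 (1.76), Utp11, a factor of ribosomal RNA processing (1.71), and Hr, the hairless corepressor (1.65). Eipr1 stood just above it, at a score of 1.56 (p-value 0.0589).

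No member peak of either library overlapped a nuclear peak of the other: 0 of 493, which allows up to 0.745% by the exact interval, and 0 of 318, which allows up to 1.15%. Among all nuclear peaks, which include those in Stat5a, Stat5b and Tert, the shares that overlapped were 0.931% and 1.10%. Outside these genes and outside Stat5a, Stat5b and Tert, 2 of 661 Tert+/+ peaks (0.303%, 0.0367 to 1.09) and 2 of 491 Tert-/- peaks (0.407%, 0.0494 to 1.46) overlapped. Those intervals overlapped the intervals of the members. The nearest approach of centres was 368 bp, in Ano2, followed by 529 bp in Lyst, a gene of lysosomal trafficking. The median distance from a member to the nearest nuclear peak of the other library was 881 kb for Tert+/+ members and 630 kb for Tert-/- members. Within 100 kb of a centre of the other library lay 29 (5.88%) and 36 (11.3%) members. The Tert+/+ members were measured against 817 nuclear peaks and the Tert-/- members against 1181, so these values are not like for like. The distances were not computed for all nuclear peaks.

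Members of both libraries were found in 18 genes. They were 3.78% of the Tert+/+ and 5.90% of the Tert-/- genes, where 1.50% of all named genes held a Tert-/- member and 2.35% a Tert+/+ member. These long genes included Ano2, Lyst, Wnt5b, Grin2a, Col25a1, Col27a1 and Lgr5, had a median length of 339 kb, and had their closest centres a median of 74.6 kb apart. Of the 18, 17 were at least 100 kb long. Some of them, such as Lyst, Wnt5b, Col27a1 and Lgr5, were of 100 to 300 kb, and others were longer. Among named protein-coding genes of 100 to 300 kb, 6.61% held a Tert+/+ member and 4.31% a Tert-/- member. Among those of 300 to 1000 kb, 14.8% and 11.4% did. The shares over all named genes are therefore no like reference for genes this long, and the sharing was not tested.

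The genes that carried a peak were long. RefSeq lengths were found for 474 of 476 and 304 of 305 genes, with a median of 82.4 kb (95% interval 70.5 to 93.6) in the Tert+/+ library and 90.8 kb (76.8 to 111) in the Tert-/- library. The 20136 named protein-coding genes of RefSeq had a median of 18.3 kb, and of these 2.35% held a Tert+/+ member and 1.50% a Tert-/- member. A gene offers room for a peak in proportion to its length, so the same genes were also weighted by length, which gave a median of 144 kb. The peak-carrying genes fell between these 2 references. Genes of at least 100 kb made up 43.5% (38.9 to 48.1) and 47.7% (42.0 to 53.5) of the peak-carrying genes, against 11.8% of all genes and 60.1% of their summed length. Genes under 10 kb made up 6.54% and 3.29%, against 34.3% of all genes and 2.87% of their summed length.

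**Figure D2:**
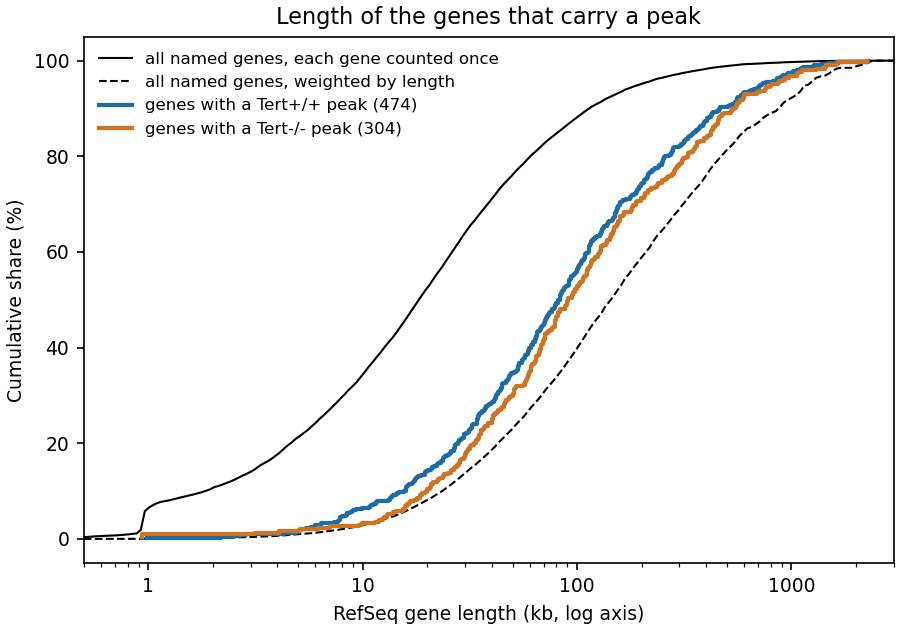
Cumulative share of genes (%) against RefSeq gene length (kb, log axis) for the 474 Tert+/+ and 304 Tert-/- genes with a peak, beside all named protein-coding genes counted once (solid black) or weighted by length (dashed black). Both coloured curves, with medians of 82.4 and 90.8 kb, run between the references, whose medians are 18.3 and 144 kb.

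Among the longest genes with a peak were Ptprd, a receptor-type tyrosine phosphatase of synapses (2271 kb), Fhit and Magi2 in the Tert+/+ library, and Cntnap2 (2241 kb), Csmd1 and Nrxn3, a presynaptic adhesion gene, in the Tert-/- library. Among the shortest with a Tert+/+ peak were Dnajb8, whose peak fell outside the RefSeq extent, and Pcp2. The shortest with a Tert-/- peak were the odorant receptor genes Olfr237, Olfr136 and Olfr1394, of which the first 2 had their peak outside the RefSeq extent. In all, 94.4% of 497 pairs of gene and Tert+/+ peak and 95.9% of 317 Tert-/- pairs lay inside the RefSeq extent.

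Peak density per base was lower in the longest genes. Counting members inside RefSeq extents, genes of 30 to 100 kb held 6.03 Tert+/+ peaks per 10 Mb (exact 95% Poisson interval 5.13 to 7.04) and genes over 1000 kb held 1.76 (0.964 to 2.96). The Tert-/- values were 3.96 (3.24 to 4.79) and 1.39 (0.692 to 2.48). In both libraries the 2 intervals did not overlap. In genes under 10 kb the densities were 7.54 (4.73 to 11.4) and 2.06 (0.755 to 4.48), on 22 and 6 peaks. The chance that a single gene held a peak went the other way, from 0.434% and 0.145% of genes under 10 kb to 20.3% and 16.9% of those over 1000 kb.

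**Figure D3:**
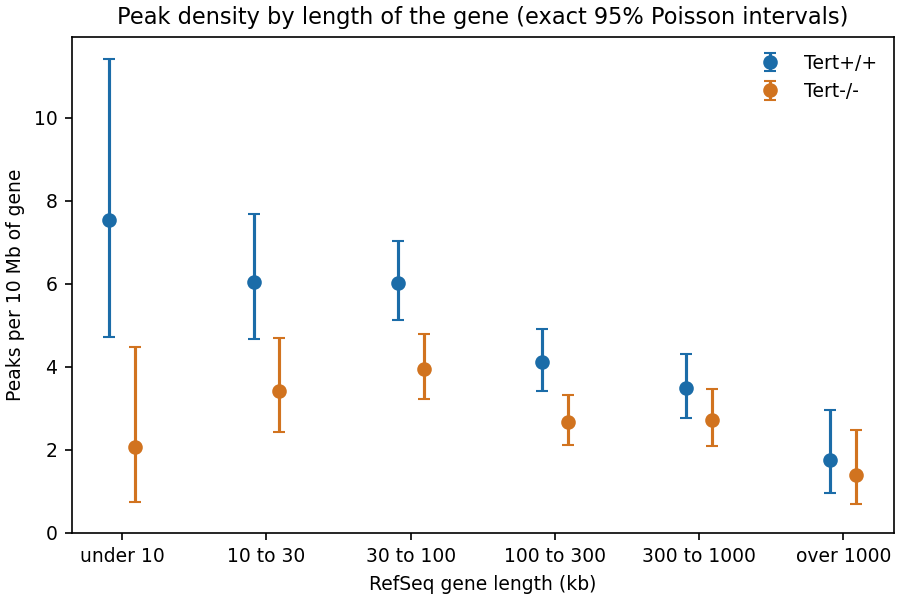
Peaks per 10 Mb of gene in 6 classes of RefSeq gene length (kb), as points with exact 95% Poisson intervals that cover counting error only. From 30 to 100 kb upward the density fell in the Tert+/+ library from 6.03 to 1.76 and was 3.96 and 1.39 at the same ends in the Tert-/- library.

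Within genes, members were spread over the whole body. Positions relative to the start could be given for 374 Tert+/+ and 240 Tert-/- pairs. The median position was 43.9% of gene length from the start (40.3 to 51.2) and 42.4% (35.3 to 49.8), and the 50% of the body nearer the start held 54.8% (49.6 to 59.9) and 56.7% (50.1 to 63.0) of members. Within 1000 bp of a start lay 8 Tert+/+ members (2.14%, 0.928 to 4.17) and 14 Tert-/- members (5.83%, 3.23 to 9.59), where 2.81% of the summed gene body lies. Within 10000 bp lay 29.7% (25.1 to 34.6) and 23.3% (18.1 to 29.2), against 19.6% of the gene body. Within 50000 bp lay 66.3% (61.3 to 71.1) and 62.9% (56.5 to 69.0), both above the 53.3% of the gene body. Within 250 bp lay 4 (1.07%, 0.292 to 2.72) and 5 (2.08%, 0.680 to 4.79), with intervals that held the 0.796% of the gene body. How the libraries compared near starts thus varied with the distance taken. The gene-body shares pool all genes by length, whereas peak density was lower in the longest genes. They are therefore not matched in length to the genes with a peak, and a matched share was not computed.

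The Tert+/+ members nearest a start were in Slc25a23 (10 bp), Wbp2, whose product binds the YAP coactivator (93 bp, score 2.46, p-value 0.00686), Enpp7, the intestinal alkaline sphingomyelinase (165 bp), Josd1, a deubiquitinase (224 bp), and Chpf, an enzyme of chondroitin synthesis (413 bp). Only Wbp2 of these had a p-value under 0.05. In the Tert-/- library they were in Cntnap2 (24 bp), Cilk1, a kinase of the primary cilium (50 bp), Tefm (74 bp), Zfp160 (-182 bp, before the start) and Zfp346 (198 bp), all with p-values above 0.05. The closest nuclear peaks just outside a named gene, which the rule left out, were 97 bp from Smyd3 and 106 bp from Rps29 in the Tert+/+ list, with scores of 1.75 and 6.45, and 2 bp from Zfp617 in the Tert-/- list, with a score of 0.983. Exon, intron and UTR positions were not analysed here, since no transcript annotation was used.

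Most genes held a single peak: 456 of 476 in the Tert+/+ library and 294 of 305 in the Tert-/- library. Myo3a was the exception, with 5 Tert+/+ peaks in 1726 bp near the end of the gene, at about 92.5% of its length for the strongest, and scores of 8.64, 6.77, 4.83, 3.81 and 2.98. Whether reads map uniquely there was not tested, and without this gene 488 Tert+/+ members remained, of which 26.6% had a p-value under 0.05. The other 19 Tert+/+ genes with more than 1 peak had 2, and in 6 of the 20 genes the closest pair of centres was under 1000 bp apart. Such close pairs were in Ano2 (157 bp), Pptc7 (123 bp), Gsap (273 bp), Slc37a1, a sugar-phosphate exchanger of the endoplasmic reticulum (732 bp, scores 5.36 and 1.52), and Cep295, a centriole gene (850 bp, scores 3.14 and 2.64). Both Slc37a1 peaks lay outside its RefSeq extent. Separate sites more than 5000 bp apart were found in 13 genes. Cyp27a1, the mitochondrial sterol 27-hydroxylase, had peaks 14452 bp apart with scores of 4.01 and 2.50, and Rora, a nuclear receptor, had peaks 228900 bp apart with scores of 2.14 and 1.42.

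In the Tert-/- library 11 genes held 24 peaks, and none had a pair under 1000 bp apart. Nckap5 had 3 peaks over 459463 bp with scores of 2.15, 0.975 and 0.947, and Ptprm, a homophilic receptor phosphatase, had 3 over 453133 bp with scores of 1.44, 0.957 and 0.941. Ednra, the endothelin A receptor of smooth muscle and fibroblasts, had 2 peaks 2060 bp apart with scores of 1.03 and 0.944. These 11 genes had a median length of 422 kb, against 137 kb for the 20 Tert+/+ genes with more than 1 peak.

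**Figure D4:**
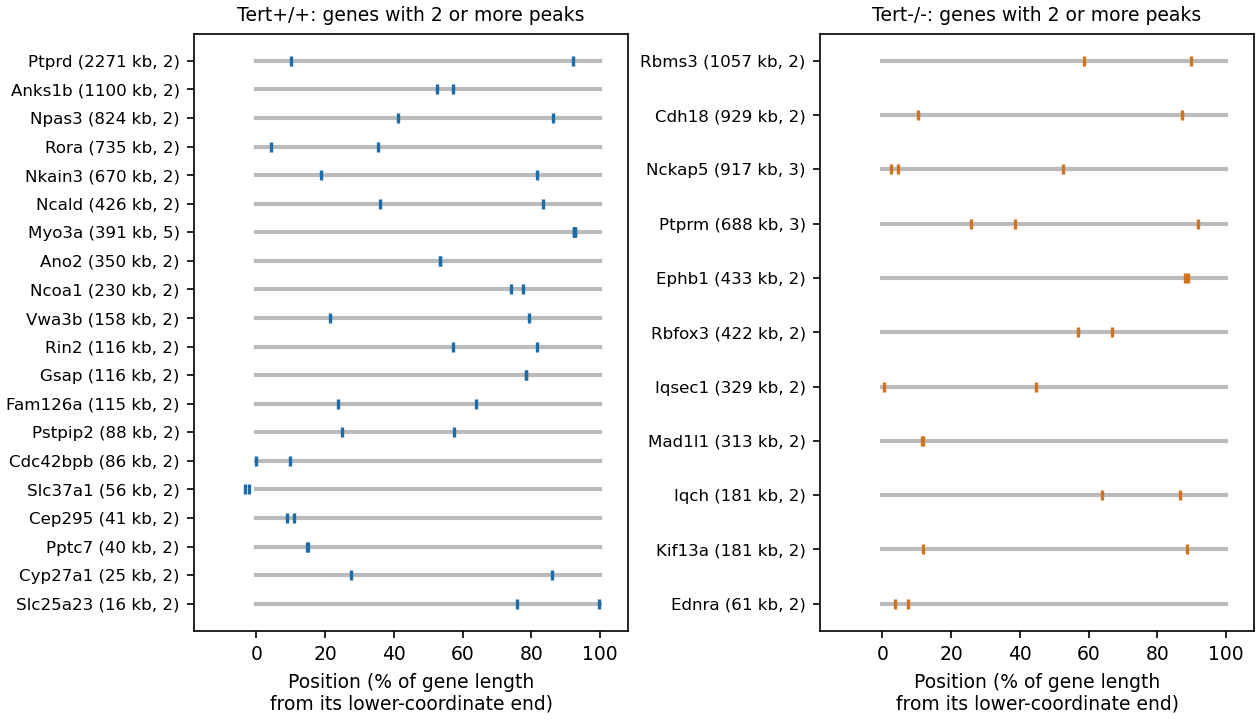
Positions of peaks (% of RefSeq gene length from the lower-coordinate end) in the 20 Tert+/+ and 11 Tert-/- genes with 2 or more, 1 grey bar per gene, with its length in kb and its number of peaks in brackets. The 5 peaks of Myo3a fall together near 1 end, and both peaks of Slc37a1 lie outside its RefSeq extent, whereas the peaks of Ptprd and Cdh18 lie far apart.

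A peak touched 2 named genes 6 times in the Tert+/+ library and 0 times in the Tert-/- library, at Tmem120b with Rhof, Capn7 with Sh3bp5, Pet100 with Pcp2, Usp8 with Usp50, Avil with Tsfm, and Abhd1 with Preb. By chromosome, the exact interval of the member share left out the chromosome's share of gene length for 6 of 20 chromosomes in the Tert+/+ library (4, 5, 7 and 11 above, 1 and 13 below) and for 3 in the Tert-/- library (11 and 15 above, 19 below). Chromosome 5 held 45 Tert+/+ members (9.13%, 6.74 to 12.0) and 12 Tert-/- members (3.77%, 1.96 to 6.50), where 6.40% of the summed length of named genes lies. Chromosome 13 held 9 Tert+/+ members (1.83%, 0.838 to 3.44), with 3.94% of the length. Chromosome shares of all nuclear peaks are not given here, so these departures cannot be told apart from those of the whole list. With 20 chromosomes read in each library, some intervals can miss their reference by counting error alone. Peak density per base was lower in the longest genes, so summed gene length is not a matched reference. The chromosome shares were not tested.

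Named genes were grouped into 16 families by symbol, and 157 Tert+/+ and 121 Tert-/- genes belonged to at least 1. The symbol patterns were incomplete, so family counts are counts of matching symbols. H3f3b of the Tert-/- library and Smchd1 of the Tert+/+ library, for example, were in no family. Families were described by the share of the peak-carrying genes they made up, beside their share of all named genes by number and by summed length, because longer genes more often held a peak. Olfactory, vomeronasal and taste receptors, which are short genes, made up 0.211% (0.00535 to 1.17) and 0.990% (0.205 to 2.87) of the peak-carrying genes, far under their 7.54% by number and close to their 0.577% by length. Neural and immunoglobulin-type adhesion proteins went the other way, with 1.69% and 1.65% against 0.447% by number and 3.66% by length. Their members included Dscam (score 1.84) and Cntnap5a (1.79) in the Tert+/+ library and Nrxn3 (1.47) and Negr1 (0.962) in the Tert-/- library.

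**Figure D5:**
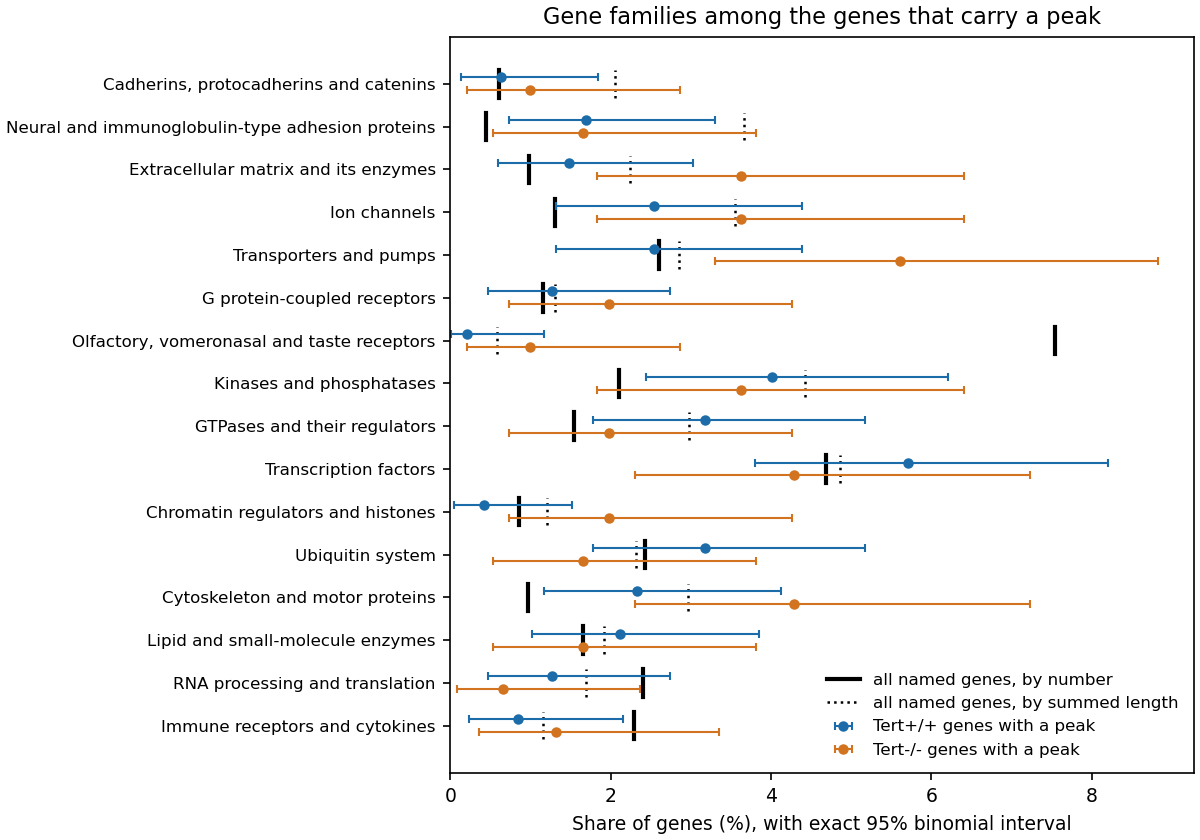
Share of peak-carrying genes (%) in each of 16 gene families, as points with exact 95% binomial intervals, with solid ticks for the family's share of all named genes and dotted ticks for its share of their summed length. Receptors for odours and taste lie far under the solid tick at 7.54% and near the dotted one at 0.577%, and Tert-/- transporters, at 5.61%, lie above both ticks.

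Symbols alone set the family of transporters and pumps, so genes such as Abce1 were counted whatever their function. The family made up 5.61% (3.30 to 8.83) of the Tert-/- genes, on 17 genes, against 2.60% by number and 2.85% by length. They included Slc1a1, a glutamate transporter (1.55), Slc28a1, a nucleoside transporter (1.54), and Slc35d2, a nucleotide sugar transporter (1.25), and none had a p-value under 0.05. In the Tert+/+ library the family made up 2.54% (1.32 to 4.39), on 12 genes. It was led by Slc37a1 (5.36), whose peaks lay outside its RefSeq extent, and Atp7a, the copper pump (2.16). The interval of the Tert-/- share lay above both references, alone among the 32 family shares of the libraries, and that of the Tert+/+ share held both. The difference between the libraries was not tested. Genes of the extracellular matrix and its enzymes numbered 11 in the Tert-/- library (3.63%, 1.83 to 6.40), against 0.983% by number and 2.24% by length. Among them were Adamts10, a fibrillin-associated protease (1.12), Itgb5, an integrin subunit (1.12), Col22a1 (1.06) and Col25a1 (1.04). The Tert+/+ library had 7 (1.48%, 0.597 to 3.03), led by Hapln1, which links hyaluronan to proteoglycans in cartilage and valve matrix (3.96, p-value 3.74e-05).

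Kinases and phosphatases with matching symbols numbered 19 and 11, at 4.02% and 3.63% against 2.10% by number and 4.43% by length. Prkdc (6.27) and Dgki, a diacylglycerol kinase (2.97), led in the Tert+/+ library and Lrrk1 (1.46) and Ptprm (1.44) in the Tert-/- library. The symbols missed kinases of both libraries, such as Gsk3b in the Tert+/+ and Cilk1 in the Tert-/- library. Cytoskeleton and motor genes numbered 11 and 13, at 2.33% and 4.29% against 0.968% by number and 2.97% by length, led by the hair cell myosins Myo3a and Myo7a in the Tert+/+ library and by Kif18a, a mitotic kinesin (1.32), in the Tert-/- library. Transcription factors with matching symbols numbered 27 and 13, at 5.71% and 4.29%, with intervals that held both references, 4.68% by number and 4.86% by length. By symbol, and so without H3f3b and Smchd1, chromatin regulators and histones numbered 2 in the Tert+/+ library and 6 in the Tert-/- library. Those of the Tert+/+ library were Phf21a (1.09) and Chd7 (1.05). Those of the Tert-/- library included Hdac9 (1.97), Ezh1, a Polycomb methyltransferase (1.48), Kmt2d, an enhancer methyltransferase (1.43), and Tet2, an enzyme of DNA demethylation (1.26). The family made up 0.423% (0.0512 to 1.52) and 1.98% (0.730 to 4.26), against 0.859% by number and 1.21% by length, and the intervals overlapped.

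Genes of the STAT pathway outside Stat5a and Stat5b held few members, and the lists were too short for this to differ visibly from the 2.35% and 1.50% of all named genes. Of 35 JAK and STAT pathway genes, 0 held a Tert+/+ member and 1 a Tert-/- member, Pias2, an inhibitor of activated STATs (0.994). Of 24 STAT5 target genes, 0 and 1 did, the latter being Bcl6, a repressor under STAT5 control, at a score of 0.993. By summed length these lists covered 0.172% and 0.0672% of the named genes, and no difference from other genes can be read from them.

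Among the lists for bone and valve, Wnt signalling held the most. Of 35 Wnt genes, 7 had a Tert+/+ member and 1 a Tert-/- member. They were Wnt5b, a non-canonical ligand (2.47), Ror2, a receptor for Wnt5a (1.67), Rspo2, an R-spondin that raises Wnt receptor levels (1.08), Gsk3b and Axin1 of the beta-catenin destruction complex (1.06 and 1.03), Tcf7l1, a nuclear effector (1.06), and Wnt7b (1.05). Only Wnt5b and Ror2 had p-values under 0.05, at 0.00672 and 0.0472. The Tert-/- member was in Wnt5b too, at a score of 0.946, with centres 15861 bp from the Tert+/+ peak. This list made up 1.48% (0.597 to 3.03) of the Tert+/+ genes, against 0.174% of all genes and 0.209% of their length, and was drawn up with earlier results of these data known, so its count is not independent evidence.

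Other lists held few genes, and with 2.35% and 1.50% of all named genes holding a member, counts of 0 to 2 in lists of 10 to 31 genes are not read as results about the lists. Osteogenic genes held 1 Tert+/+ member of 30, Phex, an endopeptidase of phosphate handling in bone (1.11). Mineral metabolism held 2 of 18, Nt5e, the ecto-nucleotidase that makes adenosine from AMP (1.80, p-value 0.0362), and Vdr, the vitamin D receptor (1.08), and the Tert-/- library held 0 of both lists. BMP and TGF-beta signalling held 0 and 1 of 31, Smad4 (0.996). Genes of fibroblasts and valve interstitial cells held 1 each of 28, Ddr2, a collagen receptor (2.13), in the Tert+/+ library and Col5a1, a fibrillar collagen (0.844), in the Tert-/- library. The medium contained a glucocorticoid, and its response genes also held 1 each of 20, Nr3c2, the mineralocorticoid receptor (1.51), and Sgk1 (0.880). Chondrogenic genes held 2 and 0 of 14, Hapln1 and Sox5, and Notch signalling 1 and 0 of 18, Numb. Immune cell genes held 0 and 1 of 16, Adgre1, and melanocyte genes 0 and 1 of 10, Mitf. The lists of smooth muscle (15 genes), telomere (17) and senescence genes (21) held 0 in both libraries.

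Neuronal and synaptic genes held 9 and 8 of 50. They made up 1.90% (0.874 to 3.58) and 2.64% (1.15 to 5.14) of the peak-carrying genes, against 0.248% of all genes by number but 4.82% by summed length. Grin2a, an NMDA receptor subunit, held a member in both libraries, at scores of 2.23 and 0.992. Genes of large fragile sites held 4 and 5 of 20, among them Wwox (1.40) and Fhit in the Tert+/+ library, and made up 0.846% and 1.65% against 2.71% by length. Both lists were above their share by number and, in point value, under their share by length. The Tert+/+ intervals lay under the length share in both lists (0.231 to 2.15 for fragile sites). The Tert-/- intervals held it (0.538 to 3.81 for fragile sites). Endothelial genes held 2 Tert+/+ members of 15, Vwf, the von Willebrand factor gene (3.56), and Pecam1, and cardiomyocyte genes also 2 of 15, Tbx20, a transcription factor of heart and valve development (1.84), and Ryr2 (1.07). The Tert-/- library held 0 of both, in lists too short to tell this from the 1.50% of all named genes. The Tert+/+ counts of 2 stand beside 2.35% of all named genes and, in lists this short, are not read as results about the lists.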

How the data were processed

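STAT5 CUT&Tag was measured in 1 Tert+/+ and 1 Tert-/- library. The authors deposited 1 peak list per library with position, width, neighbouring genes and distances, per the file headers. The peak shape score is the authors' own, per the file headers, and the deposited p-value is unadjusted. The build is mm10, per the submitters' processing notes. Aligner, caller, gene annotation, duplicate treatment and depth are not given in the sources used here, and each of these can affect how many peaks are listed and how wide they are.

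Peaks were assigned to genes by the deposited distances. Gene lengths, starts and promoter windows came from RefSeq tables of GRCm38.p6, matched by symbol and synonym. Overlap meant at least 1 bp. Shares carry exact (Clopper-Pearson) 95% intervals. No test between libraries was made. The steps were run with scipy 1.17.1, numpy 2.4.6 and pandas 2.3.3 under Python 3.11.15. Overlap finding, gene matching, the name filter and the joining of peaks were checked on cases with known answers, and the other steps were not. The members, the 19 gene lists and the 16 families were chosen with earlier results of these data known. Genes were named by rule: the 10 highest scores, several peaks, both libraries, up to 4 per list or family, extreme lengths, nearest starts, and peaks over more than 1 gene. Serpina1e, Trim45, Smyd3, Rps29 and Zfp617 fall outside this rule and were chosen with their values in view, as were some examples in families. Other settings changed the p-value limit, the gene extents, the overlap, the joining of close peaks and the background.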

Additional observations from a re-analysis of the deposited data

How the results depend on the processing

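Of 54 alternative settings of 17 values, 38 left the value within its limits. Keeping only peaks with a p-value under 0.05 left 135 Tert+/+ and 9 Tert-/- members in 128 and 9 genes, fewer by construction. They were 36.7% and 34.6% of the nuclear peaks under that limit. Genes with more than 1 member then numbered 4 and 0, and genes in both libraries 0. The median gene length in the Tert-/- library became 67.9 kb and its share within 10 kb of a start 33.3%, on few peaks. Taking overlap from RefSeq extents raised the member share to 45.4% and 43.2%, the cause of which was not tested. Joining peaks within 5000 bp left 13 Tert+/+ genes with several sites. Calling peaks shared when centres lay within 500 bp gave 1 shared member in each library. Of 70 list and family counts, 52 moved by over 1.5 times at that p-value limit. Setting 53 list and family shares beside gene length in place of gene number moved 28, and 27 were above all genes by number and by length, and 15 by number but not by length. Lists and families with 0 genes in a library were left out of the 53. In a short list 1 gene can put the share above all genes, so these counts are not read as enrichment. Settings without Myo3a, and the median length on RefSeq extents, were chosen after seeing the data. No paired analysis was possible because each group has 1 library. Depth was not given, so weak or missing peaks cannot be told apart from shallow sequencing.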
